A study of Mus musculus with 77 samples.

Results

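The endoplasmic reticulum (ER) chaperone genes described here were chosen by name: Hspa5, Hsp90b1, Pdia3, Pdia4, Pdia6, Edem1, Dnajb9, Herpud1, Sdf2l1 and Creld2. Of these 10 genes, 9 have a row in the signal table of 18138 genes and all 9 were tested among 11324 detected genes, while Sdf2l1, an ER-resident partner of chaperone complexes, has no row. Liver RNA from B6C3F1 males with 7 days of exposure, 77 samples in 18 groups, was hybridised to Illumina bead arrays read in a single colour. The study asks at which dose phthalate esters change early events in liver, with phenobarbital (PB) as a compound of another mode of action. Exposed groups received 75, 150, 300 or 600 ppm PB, 750, 1500, 3000 or 6000 ppm DEHP, 1500, 3000, 6000 or 12000 ppm BBP, or 1250, 2500, 5000 or 10000 ppm DNOP. DEHP, di(2-ethylhexyl) phthalate, is a diester with branched chains, BBP, n-butyl benzyl phthalate, has unlike ester groups, and DNOP, di-n-octyl phthalate, has linear octyl chains. Each exposed group had 4 samples, except 3 at 10000 ppm DNOP, and the unexposed groups were 4 PB controls and 10 phthalate controls. All groups share strain, sex and exposure time, and the labels do not name the medium in which doses were given. The labels give each sample a number and a letter without saying which samples are separate animals: each PB dose has 4 samples of 2 numbers and the PB controls have 4 samples of 3 numbers, while the 10 phthalate controls have 4 numbers, with 3 samples numbered 32, so p-values measure the spread between samples.

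Proteins that a cell secretes or places in its membranes fold in the ER, where chaperones hold unfolded chains, protein disulfide isomerases form and exchange disulfide bonds, and misfolded chains are sent back to the cytosol for degradation. When unfolded chains accumulate, sensors in the ER membrane start the unfolded protein response, whose transcription factors ATF6 and XBP1 raise many chaperone genes through ER stress response elements in their promoters. Hepatocytes secrete most plasma proteins, and phenobarbital is classically known to expand their smooth ER and induce cytochrome P450 enzymes.

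Depth on these arrays is signal over background, which was not equal across groups. The percent of all genes detected (detection p under 0.05) had a median of 44.29% over the 77 arrays. The PB controls stood apart: their 4 arrays detected 36.88, 38.95, 41.15 and 39.82% of genes, and 3 of the 4 lay below the lowest of the 73 other arrays (40.51%). The arrays at 600 ppm PB detected 42.6 to 45.87%, and the phthalate controls 41.95 to 45.37%. The members' results against the PB controls are given beside the phthalate controls and beside a fit with the percent detected as a covariate. All 77 arrays detected Hsp90b1, Pdia3, Pdia4, Dnajb9, Herpud1 and Creld2. Pdia6 was detected on 76 arrays and Hspa5, encoding the ER HSP70 chaperone BiP, on 64. Edem1, whose product hands misfolded glycoproteins to degradation, was detected on 3 arrays, although its median signal over all arrays (127.2) was near that of Hspa5 (126.6). Its values are those of a gene that was mostly not detected, so it is left out of the medians of the detected members. Known targets of exposure responded: at 600 ppm PB, Cyp2b10 was detected on 4 of 4 arrays against 0 of 4 PB controls, and Cyp3a11 was 4.78 higher on the log2 scale (limma, adjusted p = 1.08e-08). At the top doses against phthalate controls, 6 of 6 check genes (Cyp2b10, Cyp3a11, Cyp2c55, Cyp4a14, Ehhadh and Acot1) rose with DEHP, 4 of 6 with BBP and 3 of 6 with DNOP. Bulk RNA cannot tell fewer cells of a type from less RNA per cell.

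**Figure D1:**
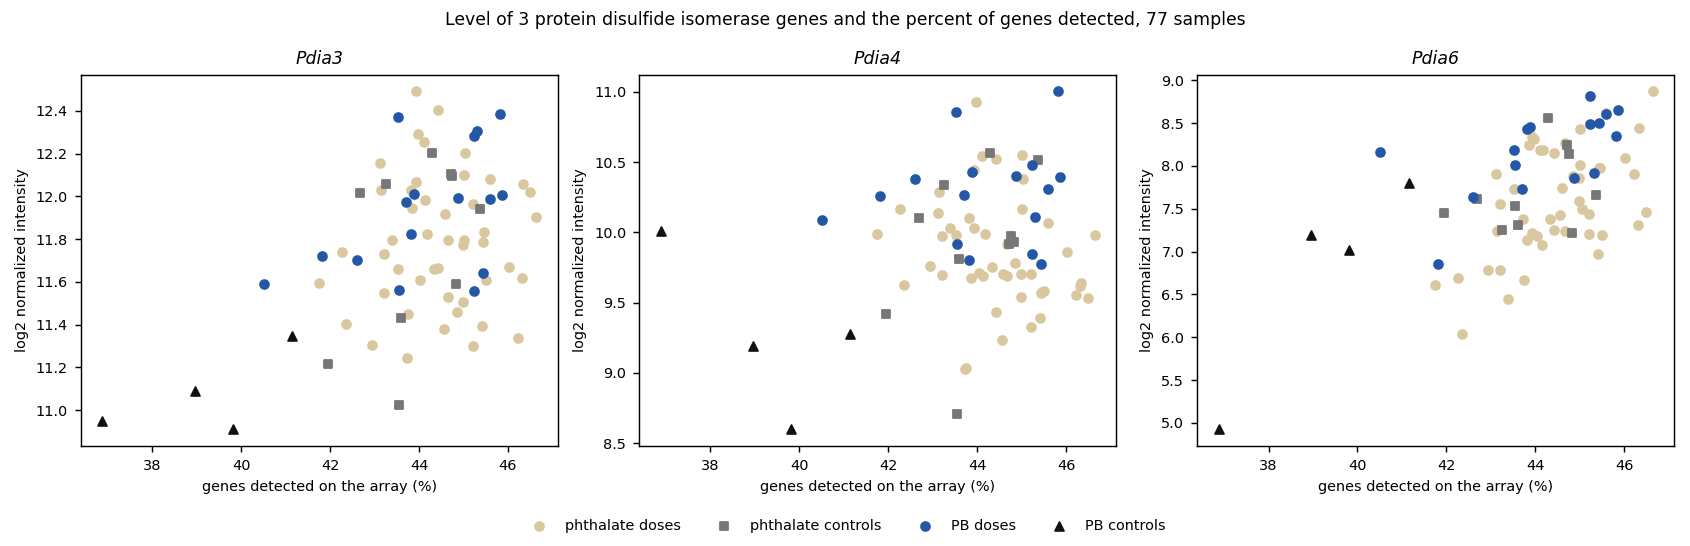
Log2 normalised intensity (vertical axes) against the percent of all genes detected on the same array (horizontal axes), 1 point per sample: Pdia3, Pdia4 and Pdia6, with PB doses in blue, PB controls as black triangles, phthalate doses in tan and phthalate controls as grey squares. The PB controls sit at the left, at 36.88 to 41.15% of genes detected, and the PB dose groups lie to their right.

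The promoters of the members were searched for 3 published ER stress motifs on both strands in the 250 bases before the gene start, in RefSeq sequence of build GRCm38.p6. The motifs were ERSE (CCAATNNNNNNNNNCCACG), ERSE-II (ATTGGNCCACG) and UPRE (TGACGTGG), each searched in this form only. They occur in 37, 10 and 185 of 32851 mouse promoter windows, which is 0.113%, 0.0304% and 0.563%. Of the 10 members, 5 hold a match and 5 (Pdia3, Pdia4, Edem1, Dnajb9 and Sdf2l1) hold none. Hspa5 has an ERSE at 65 to 47 bases before the start and Pdia6 one at 98 to 80 bases. Hsp90b1 has 2 of them, at 212 to 194 bases and, on the opposite strand, at 107 to 89 bases. Creld2 has one on the opposite strand at 126 to 108 bases, and Herpud1 has an ERSE-II at 52 to 42 bases. No matches overlap one another. The windows of Pdia6, Pdia3 and Pdia4, the isomerase genes the phenobarbital results turn on, with Hspa5 and Herpud1 as examples of an ERSE and an ERSE-II, are printed 5′ to 3′ on the gene's strand, with matches in capitals. They are chr12:17266339-17266588 (plus strand) for Pdia6, chr2:34771840-34772089 (plus) for Hspa5, chr8:94386179-94386428 (plus) for Herpud1, chr2:121413652-121413901 (plus) for Pdia3 and chr6:47813513-47813762 (minus) for Pdia4.
Pdia6: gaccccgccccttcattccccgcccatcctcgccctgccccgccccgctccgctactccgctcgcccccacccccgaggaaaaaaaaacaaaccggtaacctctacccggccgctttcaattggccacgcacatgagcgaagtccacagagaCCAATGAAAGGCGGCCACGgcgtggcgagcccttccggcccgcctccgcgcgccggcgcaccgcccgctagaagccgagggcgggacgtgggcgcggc
Hspa5: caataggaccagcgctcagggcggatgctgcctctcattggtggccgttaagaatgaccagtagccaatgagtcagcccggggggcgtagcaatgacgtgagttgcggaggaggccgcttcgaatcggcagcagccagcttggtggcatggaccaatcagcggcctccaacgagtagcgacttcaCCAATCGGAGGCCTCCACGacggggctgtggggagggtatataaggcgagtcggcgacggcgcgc
Herpud1: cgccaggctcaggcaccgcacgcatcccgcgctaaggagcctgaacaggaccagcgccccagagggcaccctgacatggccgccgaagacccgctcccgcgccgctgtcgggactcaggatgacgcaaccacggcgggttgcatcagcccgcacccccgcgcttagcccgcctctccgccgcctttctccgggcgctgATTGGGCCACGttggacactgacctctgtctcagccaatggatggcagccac
Pdia3: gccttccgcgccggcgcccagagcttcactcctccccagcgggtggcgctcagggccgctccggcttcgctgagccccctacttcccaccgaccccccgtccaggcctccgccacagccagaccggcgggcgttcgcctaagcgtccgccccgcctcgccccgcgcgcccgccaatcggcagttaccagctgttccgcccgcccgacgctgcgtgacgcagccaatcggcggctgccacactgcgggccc
Pdia4: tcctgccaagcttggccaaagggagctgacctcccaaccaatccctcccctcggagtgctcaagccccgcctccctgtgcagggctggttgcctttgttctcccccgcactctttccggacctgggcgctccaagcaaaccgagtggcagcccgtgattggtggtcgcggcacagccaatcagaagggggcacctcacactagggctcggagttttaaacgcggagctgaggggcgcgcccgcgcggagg
A match is a description of these letters, and a window without one says nothing of the factors that bind elsewhere. The Hspa5 window also holds tgacgtga, which departs from the searched UPRE in its last base and was not counted. Among the isomerase genes the match is in Pdia6 alone.

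Against the PB controls, 3 protein disulfide isomerases were higher with phenobarbital, when 2.55, 4.85, 3.29 and 4.42% of all tested genes were called higher at 75, 150, 300 and 600 ppm. Pdia3, which works with calreticulin and calnexin on glycoproteins, was higher at all 4 doses, by 1.73-, 1.77-, 1.97- and 1.81-fold from the lowest dose to the highest. Pdia4, a multidomain isomerase, was higher at 150, 300 and 600 ppm by 1.95-, 2.11- and 2.17-fold, and Pdia6, an isomerase that binds BiP, by 3.17-, 3.04- and 2.73-fold. Every Pdia6 call was lost without PB control replicate 1, in which Pdia6 was not detected. Hspa5, Hsp90b1, Dnajb9, Creld2 and Herpud1 passed the test at no PB dose. Against the phthalate controls no member passed at any PB dose, no member passed against the PB controls with the percent of genes detected as a covariate, and the PB controls were themselves lower than the phthalate controls in Pdia3.

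**Figure D2:**
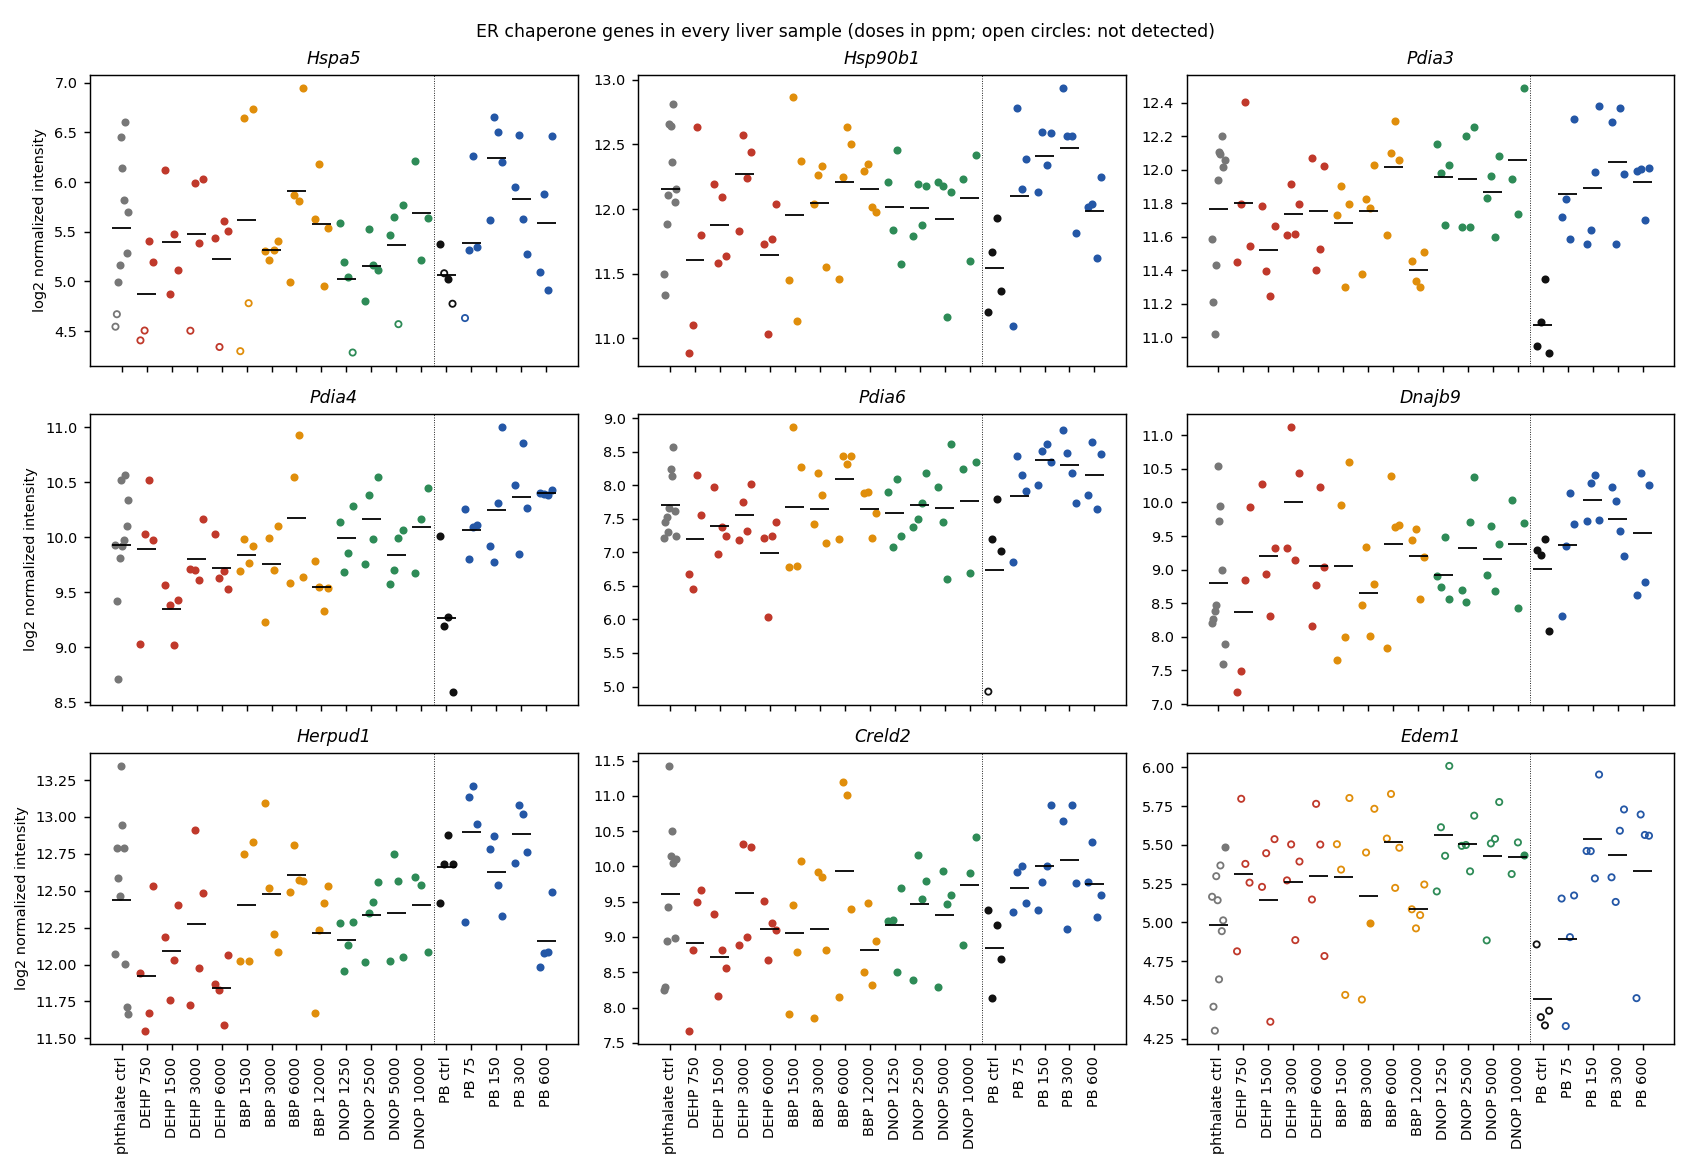
Log2 normalised intensity of each member (vertical axes) in all 77 samples, 1 point per sample, with the 18 groups along the horizontal axis and a bar at each group mean, and with open circles where the gene was not detected. The PB controls have the lowest group mean for Hsp90b1, Pdia3, Pdia4 and Pdia6.

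In normalised log2 intensity, Pdia3 was 10.95, 11.09, 11.35 and 10.91 in the 4 PB controls (0 ppm), 11.72, 11.83, 11.59 and 12.30 at 75 ppm, and 11.56, 11.64, 11.99 and 12.38 at 150 ppm. It was 12.28, 11.56, 12.37 and 11.97 at 300 ppm and 11.99, 12.01, 11.70 and 12.01 at 600 ppm. Every PB sample lay above every PB control, and the ranges of the 4 doses overlapped one another. The fitted differences were 0.79, 0.82, 0.97 and 0.86 on the log2 scale (SE 0.221, n = 4 each), with adjusted p of 0.0216, 0.0107, 0.00282 and 0.0072 from the limma fit with Benjamini-Hochberg adjustment over all tested genes. Against the phthalate controls, whose 10 values lay between 11.02 and 12.20 (median 11.98), the same doses differed by 0.087, 0.12, 0.27 and 0.16, and the 95% interval at 600 ppm was -0.22 to 0.53. A fitted difference can depart slightly from that of the group means, because samples of 1 number share a block. The ranges overlapped at every dose.

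Pdia4 was 10.40, 10.39, 10.38 and 10.43 at 600 ppm PB, against 10.01, 9.19, 9.28 and 8.60 in the PB controls. The SD at 600 ppm was 0.0201, against 0.579 in the PB controls, and the groups did not overlap. The difference was 0.78 at 75 ppm (SE 0.293, adjusted p = 0.0933), 0.97 at 150 ppm (adjusted p = 0.0235), 1.08 at 300 ppm (adjusted p = 0.0137) and 1.12 at 600 ppm (adjusted p = 0.00843, limma). Below 600 ppm the ranges overlapped through a single control, the one at 10.01. Against the phthalate controls (8.71 to 10.56, median 9.95) the difference at 600 ppm was 0.47 with an interval of -0.030 to 0.97, and it passed at no dose.

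Pdia6 was 8.0, 8.51, 8.61 and 8.35 at 150 ppm PB, against 4.92, 7.19, 7.79 and 7.02 in the PB controls. The control at 4.92 was not detected (detection p = 0.0927) and was the lowest Pdia6 value of all samples. At 600 ppm the gene was at 7.86, 8.65, 7.64 and 8.46, overlapping the controls. The fitted difference was 1.14 at 75 ppm (adjusted p = 0.121), 1.67 at 150 ppm (adjusted p = 0.0122), 1.60 at 300 ppm (adjusted p = 0.0194) and 1.45 at 600 ppm (SE 0.458, adjusted p = 0.0315). Without that control, replicate 1, the Pdia6 differences were 0.51, 1.04, 0.97 and 0.82 from 75 to 600 ppm with adjusted p of 0.168 or more, so every Pdia6 call rested on 1 library. Without the same control Pdia3 kept 0.78, 0.93 and 0.81 past the threshold at 150, 300 and 600 ppm but had an adjusted p of 0.0651 at 75 ppm, and Pdia4 passed at all 4 doses with 1.04, 1.22, 1.34 and 1.38. Without PB control replicate 4, the lowest for Pdia4, that gene passed at 600 ppm only (0.91, adjusted p = 0.0485) and Pdia3 missed at 75 ppm (adjusted p = 0.0543). Leaving out a single dosed sample also ended calls: Pdia3 at 75 ppm without replicate 2 or 4 and at 150 ppm without replicate 4, Pdia4 at 150 ppm without replicate 4 and at 300 ppm without replicate 3, and Pdia6 at 300 ppm without replicate 1 or 2 and at 600 ppm without replicate 2 or 4. With samples of 1 number averaged, Pdia3 passed at 150, 300 and 600 ppm (adjusted p = 0.0413, 0.0167 and 0.03, limma). In that fit Pdia4 differed by 0.87, 0.98 and 1.02 at these doses (adjusted p = 0.123, 0.0894 and 0.0633) and Pdia6 by 1.86, 1.80 and 1.64 (0.0511, 0.0718 and 0.0878), so neither passed at any dose.

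The general chaperones of the ER did not pass. Hspa5 was 5.61, 6.66, 6.50 and 6.20 at 150 ppm PB, against 5.38, 5.08, 5.03 and 4.77 in the PB controls, of which 2 were not detected. These groups did not overlap, and the difference was 1.17 (SE 0.45, interval 0.27 to 2.07, adjusted p = 0.0774). At 600 ppm Hspa5 was 5.09, 5.88, 4.91 and 6.46, with 2 samples inside the control range and 2 above it and a difference of 0.51 (adjusted p = 0.508). Hsp90b1, the HSP90 paralog of the ER, was 12.13, 12.59, 12.34 and 12.59 at 150 ppm and 12.94, 12.57, 12.57 and 11.82 at 300 ppm, against 11.21, 11.67, 11.93 and 11.37 in the PB controls. The 150 ppm samples all lay above the controls, and the differences of 0.87 (adjusted p = 0.0786) and 0.93 (adjusted p = 0.0714) missed the threshold. At 600 ppm the Hsp90b1 difference was 0.44 with an interval of -0.23 to 1.12.

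The stress-responsive partners varied more between samples. Dnajb9, a J-domain co-chaperone of BiP, was 9.72, 10.29, 10.41 and 9.73 at 150 ppm PB, against 9.29, 9.22, 9.45 and 8.09 in the PB controls. The groups did not overlap, but the difference of 1.01 had an SE of 0.61 (adjusted p = 0.279). Creld2, an ER protein with isomerase-like activity that is induced by ER stress, differed by 0.85, 1.17, 1.26 and 0.91 from 75 to 600 ppm (adjusted p from 0.162 to 0.388). Its values were 9.39, 9.77, 10.01 and 10.87 at 150 ppm, against 9.38, 8.13, 9.18 and 8.69 in the PB controls, with the lowest PB sample just above the highest control.

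The remaining members act in degradation. Herpud1, a membrane protein of the ER degradation machinery, was 11.98, 12.08, 12.09 and 12.49 at 600 ppm PB, against 12.42, 12.68, 12.88 and 12.68 in the PB controls. Only the sample at 12.49 reached the control range, and the difference was -0.50 (SE 0.264, interval -1.03 to 0.029, adjusted p = 0.234, limma). At 75, 150 and 300 ppm Herpud1 differed by 0.24, -0.028 and 0.23. Edem1 was detected on none of the PB-exposed arrays and on none of the PB controls. Its measured means at 150, 300 and 600 ppm (5.54, 5.43 and 5.33, against 4.50 in the PB controls) passed the limma test (adjusted p = 0.00957, 0.0244 and 0.0412). Because no array of either side detected the gene, no fold is given.

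Counting Edem1, 1, 4, 4 and 4 of the 9 members were called higher at 75, 150, 300 and 600 ppm PB against the PB controls and none lower. Of all tested genes, 2.55, 4.85, 3.29 and 4.42% were called higher at these doses. The groups did not overlap, with PB above, for 1, 7, 2 and 2 members, against 2.84, 9.25, 6.84 and 6.77% of all genes. The median difference of the 8 detected members was 0.67, 0.99, 0.95 and 0.69, beside all-gene medians of 0.0025, 0.0019, 0.0017 and 0.0086. Centring each array on its median in place of quantile normalization moved the all-gene median from 75 to 600 ppm to 0.16, 0.54, 0.47 and 0.54, and the member medians to 1.03, 1.86, 1.80 and 1.63. Then 8, 8, 8 and 7 of the 8 detected members lay above the all-gene median, the exception being Herpud1 at 600 ppm (0.076). With the percent of genes detected as a covariate the member medians were 0.079, -0.090, 0.051 and -0.325, with 5, 3, 5 and 3 of 8 positive, so the sign of the median turned at 150 and 600 ppm.

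Against the phthalate controls 0 of 36 member and dose pairs were called by limma, and 2 had an unadjusted p under 0.05, when 2.64, 0.168, 0.733 and 1.99% of all genes were called in either direction at 75, 150, 300 and 600 ppm. At these doses 1794, 1187, 1169 and 1393 of the 11324 tested genes had an unadjusted p under 0.05. Of the 8 detected members 6, 8, 8 and 6 had positive differences, with medians of 0.11, 0.34, 0.43 and 0.13. Median centring turned the one at 75 ppm to -0.25, beside -0.15 for all genes. Without the 3 phthalate controls numbered 32 the medians were -0.11, 0.14, 0.13 and -0.16, with 3, 6, 6 and 3 of 8 positive, so the sign turned at 75 and 600 ppm. The largest was Dnajb9 at 150 ppm, 1.21 higher than phthalate controls that ranged from 7.59 to 10.54 (interval 0.17 to 2.25, adjusted p = 0.398). Pdia6 differed by 0.67, 0.60 and 0.45 at 150, 300 and 600 ppm, and Hspa5 by 0.69, 0.28 and 0.037. The intervals of Pdia6 at these doses, -0.11 to 1.45, -0.18 to 1.38 and -0.33 to 1.23, hold both 0 and differences above 1.

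**Figure D3:**
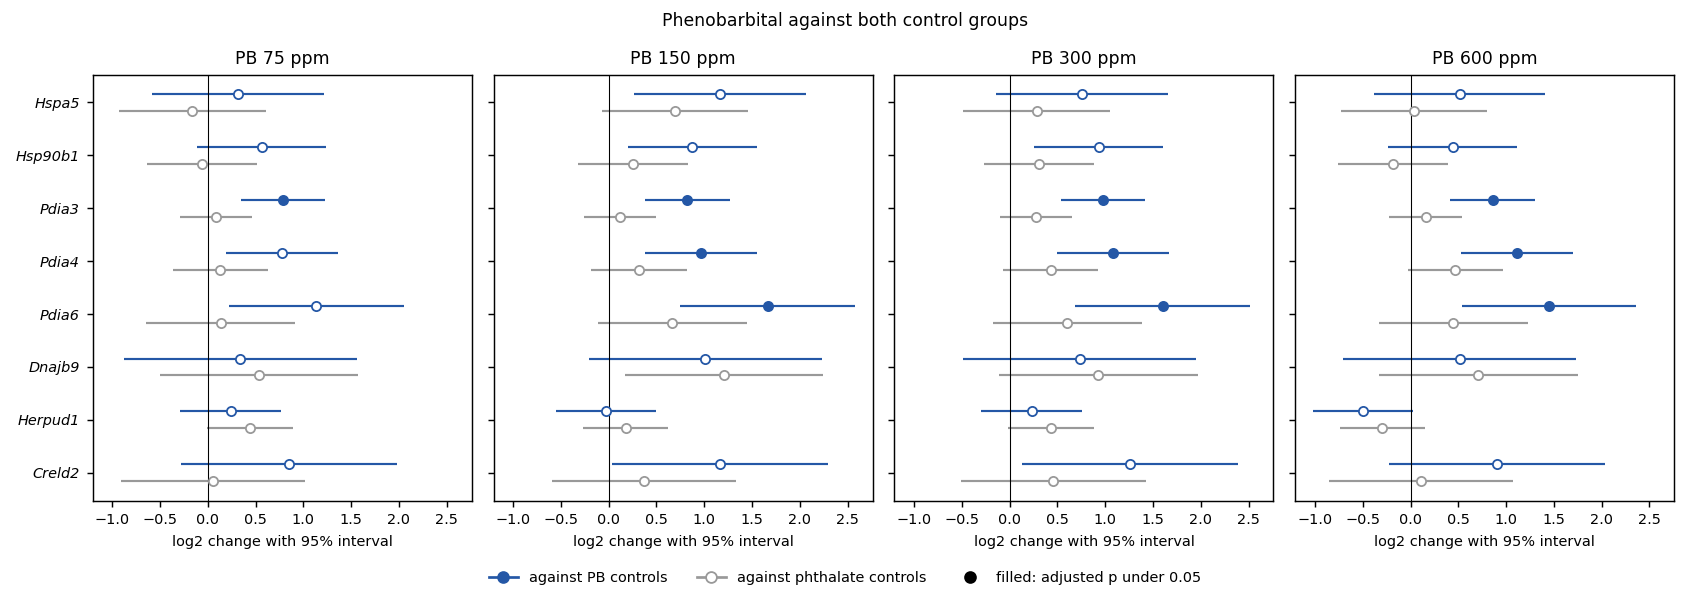
Log2 differences of the members at each PB dose against the PB controls and against the phthalate controls, with 95% confidence intervals from the limma fit and filled points where the adjusted p was under 0.05. Pdia3 at 600 ppm is at 0.86 against the PB controls and at 0.16 against the phthalate controls.

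The control groups were compared directly. Pdia3 was lower in the PB controls than in the phthalate controls by 0.70 (SE 0.186, n = 4 and 10, adjusted p = 0.016), although the PB control at 11.35 lay inside the range of the phthalate controls. This was the only member called, of 9, when 1.59% of all genes were called lower. Pdia4 differed by -0.65 (adjusted p = 0.121), Pdia6 by -1.0 (0.127), Hsp90b1 by -0.62 (0.213) and Creld2 by -0.80 (0.36), while Dnajb9 and Herpud1 differed by 0.19 and 0.20. The median of the 8 detected members was -0.64, beside -0.014 for all genes. Without PB control replicate 1 or 4 Pdia3 was no longer called. With median centring the median was -1.34, beside -0.44 for all genes, and with the percent of genes detected as a covariate it was 0.38, so the direction of the members' median depended on that covariate.

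Within groups, several members followed the percent of genes detected. The slope was 0.298 log2 units per percentage point for Pdia6 (SE 0.0529), 0.221 for Hsp90b1, 0.216 for Dnajb9, 0.207 for Hspa5 and 0.093 for Pdia3 (SE 0.0291), over 77 samples. It was -0.025 for Pdia4 (SE 0.0414) and 0.03 for Herpud1, beside a median of -0.0059 over all tested genes. The slopes include PB control replicate 1 (36.88% of genes detected), the array on which the Pdia6 calls rested. No slope was fitted without that array. With the percent detected as a covariate no member was called at any PB dose against the PB controls. Pdia6 then differed by 0.030, -0.11, 0.032 and -0.087 from 75 to 600 ppm (adjusted p from 0.963 to 0.989) and Pdia3 by 0.44, 0.27, 0.48 and 0.38 (0.427 to 0.789). Pdia4 kept its size, 0.87, 1.11, 1.21 and 1.24, with adjusted p of 0.218, 0.25, 0.111 and 0.0589. In the same fit Hsp90b1 differed by -0.26, -0.45, -0.24 and -0.70, Hspa5 by -0.46, -0.072, -0.34 and -0.56, and Dnajb9 by -0.47, -0.28, -0.41 and -0.61, each with a sign opposite to that without the covariate. Creld2 differed by 0.60, 0.77, 0.90 and 0.56, and Herpud1 by 0.13, -0.21, 0.070 and -0.65. Because 3 of the 4 PB controls detected fewer genes than every other array, low detection and the PB control group cannot be told apart for them.

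No member passed at any phthalate dose. Against the phthalate controls limma called 0 of 36 member and dose pairs with DEHP, 0 of 36 with BBP and 0 of 36 with DNOP, with 4, 2 and 2 at an unadjusted p under 0.05. Of the 11324 tested genes, 1466, 1897, 2366 and 2348 had an unadjusted p under 0.05 with rising DEHP dose. These counts were 403, 434, 997 and 1649 with BBP, and 455, 979, 961 and 600 with DNOP. All genes were called in either direction at 1.9, 4.55, 8.4 and 9.37% with rising DEHP dose, 0, 0, 0.0795 and 2.91% with BBP, and 0, 0.238, 0.212 and 0.0618% with DNOP. The 8 detected members had medians of -0.51, -0.30, -0.053 and -0.42 with DEHP, where 7, 7, 6 and 7 of 8 were negative. With BBP the medians were -0.069, -0.15, 0.27 and -0.15, and at 6000 ppm all 8 were positive. With DNOP they were -0.13, -0.060, -0.10 and 0.12. Median centring turned the sign of the median at 3000 ppm DEHP (0.22, beside 0.12 for all genes), at 1500 and 12000 ppm BBP (0.035 and 0.013, beside 0.057 and 0.058) and at 2500 and 5000 ppm DNOP (0.22 and 0.17, beside 0.15 and 0.20), and left 5 of 8 negative at 6000 ppm DEHP (median -0.17, beside 0.14). Without the 3 phthalate controls numbered 32 the DEHP medians were -0.65, -0.47, -0.25 and -0.63, and the BBP medians -0.28, -0.38, 0.033 and -0.28, with 6 of 8 members positive at 6000 ppm. The DNOP medians were then -0.26, -0.12, -0.25 and -0.070, so the one at 10000 ppm turned.

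**Figure D4:**
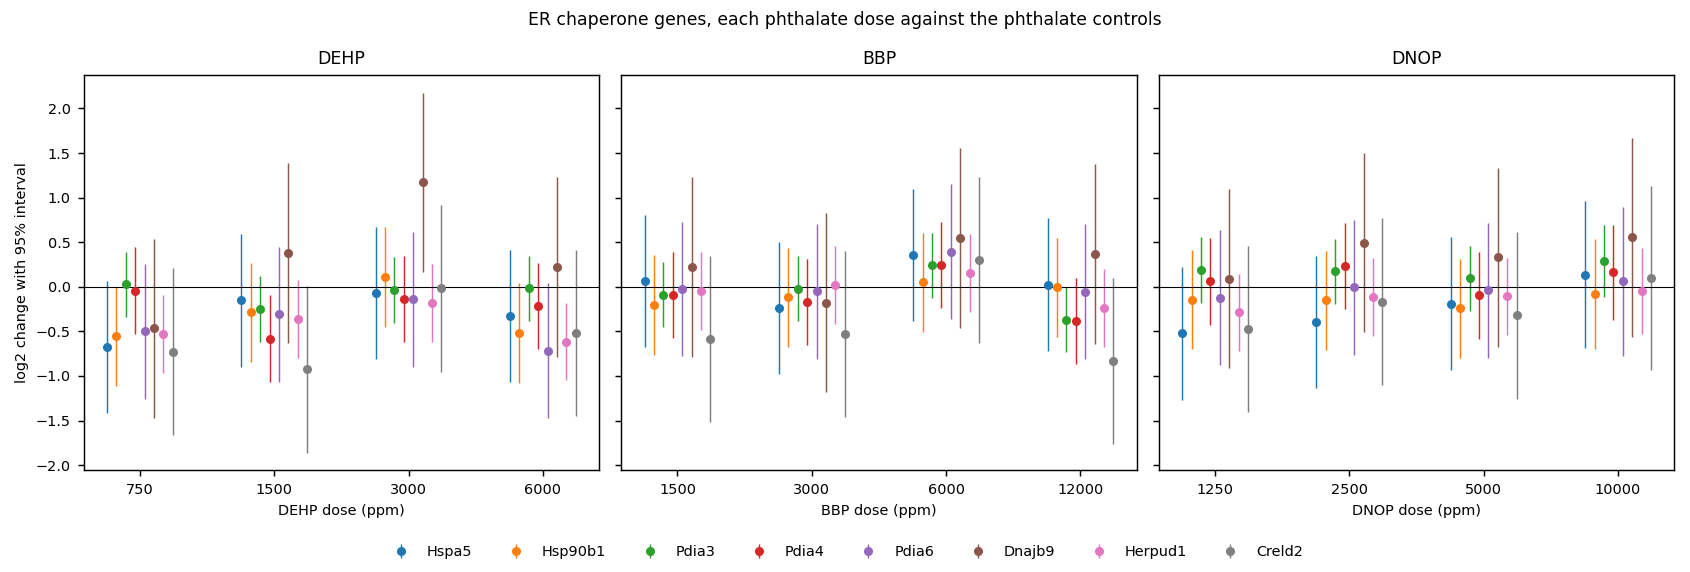
Log2 differences of the members at each dose of DEHP, BBP and DNOP against the phthalate controls, with 95% confidence intervals from the limma fit. No member passed at any dose, and Herpud1 at 6000 ppm DEHP, at -0.62, has the lowest adjusted p (0.0614).

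The member nearest to a call was Herpud1 at 6000 ppm DEHP. Its 4 values were 11.87, 11.83, 11.59 and 12.06, against 10 phthalate controls from 11.66 to 13.35 with a median of 12.53. The lowest lay below every control and the other 3 below the control median, and the difference was -0.62 (SE 0.218, interval -1.05 to -0.18, adjusted p = 0.0614). It passed when phthalate control replicate 1, 9 or 10 was left out. Herpud1 differed by -0.53, -0.36 and -0.18 at 750, 1500 and 3000 ppm (adjusted p = 0.246, 0.421 and 0.705). Pdia4 at 1500 ppm DEHP was 9.57, 9.39, 9.03 and 9.43, against 8.71 to 10.56 in the phthalate controls, a difference of -0.58 (adjusted p = 0.177) that passed without the 3 controls numbered 32 (-0.82, adjusted p = 0.0211). Dnajb9 went the other way at 3000 ppm DEHP, with 9.32, 11.12, 9.14 and 10.43 against phthalate controls of 7.59 to 10.54 and a difference of 1.17 (SE 0.504, adjusted p = 0.154). Creld2 differed by -0.93 at 1500 ppm DEHP (adjusted p = 0.303) and by -0.83 at 12000 ppm BBP (adjusted p = 0.411). Pdia6 differed by -0.72 at 6000 ppm DEHP (adjusted p = 0.276).

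DEHP and BBP, which differ in their ester groups, share 3 doses, and 0 of 27 member and dose pairs differed between them by limma (3 at an unadjusted p under 0.05), when 1.69, 4.1 and 2.2% of all genes were called in either direction at 1500, 3000 and 6000 ppm. At these doses 1063, 1744 and 1098 of the 11324 tested genes had an unadjusted p under 0.05. At 6000 ppm Herpud1 was 11.87, 11.83, 11.59 and 12.06 with DEHP, against 12.49, 12.81, 12.57 and 12.57 with BBP. These groups did not overlap, as for 6.11% of all genes, and the difference was -0.77 (interval -1.28 to -0.26, adjusted p = 0.117). Pdia6 differed by -1.11 at that dose (interval -1.99 to -0.23, adjusted p = 0.286), and all 8 detected members were lower with DEHP than with BBP, with a median of -0.63. At 3000 ppm Dnajb9 was 9.32, 11.12, 9.14 and 10.43 with DEHP, against 8.48, 9.33, 8.01 and 8.79 with BBP, an overlapping pair of groups (14.4% of all genes did not overlap) with a difference of 1.35 (interval 0.17 to 2.53, adjusted p = 0.228). At 1500 ppm Pdia4 was 9.57, 9.39, 9.03 and 9.43 with DEHP, against 9.70, 9.98, 9.76 and 9.92 with BBP, which did not overlap (4.68% of all genes did not) and differed by -0.49 (interval -1.05 to 0.077, adjusted p = 0.662). The DNOP doses match neither series, so its values stand beside them without a test: Herpud1 averaged 12.17 ± 0.159, 12.34 ± 0.231, 12.35 ± 0.365 and 12.41 ± 0.279 from 1250 to 10000 ppm DNOP (SD, n = 4 except 3 at the top dose).

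The effect of 600 ppm PB against its controls was set against the effect of each top phthalate dose against the phthalate controls. The PB effect was larger than that of 6000 ppm DEHP for Pdia4, by 1.33 (SE 0.38, adjusted p = 0.034), and for Pdia6, by 2.16 (SE 0.594, adjusted p = 0.0254), 2 of 9 members when 1.37% of all genes were called in that direction. It was larger than that of 12000 ppm BBP for Pdia3, by 1.23 (SE 0.287, adjusted p = 0.0086), and for Pdia4, by 1.50 (adjusted p = 0.017), again 2 of 9 when 1.33% of all genes were. Against 10000 ppm DNOP 0 of 9 were called, beside 0.636% of all genes, with Pdia4 at 0.96 (adjusted p = 0.253). There 2 members had an unadjusted p under 0.05, as did 1531 of the 11324 tested genes. These 3 tests share the PB samples and both control groups. The gap between the control groups enters each difference: the PB controls differed from the phthalate controls by -0.70 for Pdia3, -0.65 for Pdia4 and -1.0 for Pdia6. Leaving out 1 sample in turn, 22 in all, the Pdia4 difference from DEHP lost its call in 8 cases (PB control replicate 2 or 4, 6000 ppm DEHP replicate 2, 3 or 4, and 600 ppm PB replicate 1, 2 or 4), with a lowest value of 1.12 and a highest adjusted p of 0.111. The Pdia6 difference lost it in 4 of 22 (PB control replicate 1, 6000 ppm DEHP replicate 2, and 600 ppm PB replicate 2 or 4), and without PB control replicate 1 it was 1.53 (adjusted p = 0.172). Against BBP, Pdia4 lost its call without PB control replicate 4 (1.29, adjusted p = 0.0559), and Pdia3 kept it in 22 of 22. With samples of 1 number averaged Pdia3 against BBP was the only one called, and with the percent detected as a covariate Pdia4 against BBP was the only one called (1.59, adjusted p = 0.0305).

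Over the 18 groups the means of Pdia3 ran from 11.07 in the PB controls to 12.06 at 10000 ppm DNOP, and its largest gap between neighbours, 0.33, is the one above the PB controls and exceeds the residual SD of 0.309. For the other detected members no gap between neighbouring groups exceeded the residual SD, in 17 pairs each. Pdia4 ran from 9.27 in the PB controls to 10.40 at 600 ppm PB, and Pdia6 from 6.73 in the PB controls to 8.37 at 150 ppm PB. Hsp90b1 was lowest in the PB controls (11.54) and highest at 300 ppm PB (12.47). Hspa5 and Dnajb9 were lowest at 750 ppm DEHP (4.88 and 8.37) and highest at 150 ppm PB (6.24 and 10.04). Herpud1 was lowest at 6000 ppm DEHP (11.84) and highest at 75 ppm PB (12.90), and Creld2 was lowest at 1500 ppm DEHP (8.71) and highest at 300 ppm PB (10.10).

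The spread within groups sets what these arrays can show. The residual SD of Dnajb9 (0.855) exceeds that of 99.4% of tested genes, that of Creld2 (0.795) 99% and that of Pdia6 (0.639) and Hspa5 (0.63) 97.3 and 97.1%, while Pdia3 stands at 71.8%. The members varied together: over the 28 pairs of detected members the correlation within groups had a median of 0.492 (-0.17 to 0.828, 77 samples), and that of the 18 group means a median of 0.632. Hspa5 and Hsp90b1 had 0.767 within groups, and the lowest pair was Pdia4 with Herpud1. These points share arrays, so depth and scaling enter both values of a pair. The 5 other genes whose group means were most like the mean of the detected members were LOC100048726 (r = 0.945 over 18 groups), Sel1l (0.895), Sec61g (0.879), 4833442J19Rik (0.862) and Gosr2 (0.858).

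Other genes of ER protein handling were read from fixed lists at the top dose of each compound. Of 31 further ER folding and redox genes, 7 fell and 1 rose at 6000 ppm DEHP, where 4.15% of all genes fell, with a median of -0.24 beside -0.0030 for all genes. Calr, encoding the lectin chaperone calreticulin, fell by 1.25 (limma, adjusted p = 0.00955), Fkbp11, an ER prolyl isomerase, by 1.23 (0.000241), and Hyou1, an ER HSP110-type chaperone, by 1.17 (0.025), while the cyclophilin Ppic rose by 0.84 (3.13e-07). At 12000 ppm BBP, where 1.42% of all genes fell, 5 fell and 1 rose: Calr fell by 1.14 (0.0497), Fkbp11 by 1.03, Pdia5, another disulfide isomerase, by 0.79 (0.00124), and Dnajc3, a BiP co-chaperone, by 0.73. At 10000 ppm DNOP 0 of 31 were called by limma, and at 600 ppm PB 1 rose (Ganab, glucosidase II, 0.34) and 1 fell (Sumf2, -0.39), where 4.42% of all genes rose and 5.55% fell. Neither passed against the phthalate controls (0.049 and 0.22) or with the percent detected as a covariate (0.37, adjusted p = 0.0892, and -0.23, adjusted p = 0.584). Median centring left 1 fall and 1 rise at 6000 ppm DEHP and no call at 12000 ppm BBP, and it gave 22 rises at 600 ppm PB, where its all-gene median is 0.54. The share of all genes called higher in that fit is not given, so the 22 rises do not describe this list alone.

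Of 29 translocation and N-glycosylation genes, 6 fell at 6000 ppm DEHP, among them Sec63 by 0.71, Ssr4 by 0.67, Ddost by 0.65 and Sec61a1, the channel subunit, by 0.60, and none did under median centring. At 12000 ppm BBP 2 of the 29 fell, and at 10000 ppm DNOP none was called. At 600 ppm PB 2 of 29 rose and 2 fell against the PB controls, beside those 4.42 and 5.55% of all genes. Stt3a, the catalytic subunit of oligosaccharyltransferase, was 0.85 higher against the PB controls (adjusted p = 0.0301) and 0.87 higher against the phthalate controls (0.0228), and its partner Rpn2 was 0.45 (0.0366) and 0.49 (0.0185) higher, so both passed against either control group. With the percent detected as a covariate neither passed against the PB controls (0.51, adjusted p = 0.521, and 0.46, adjusted p = 0.216). Srp68 and Ssr4 were lower against the PB controls by 0.64 and 0.62, and neither passed against the phthalate controls (-0.096 and -0.17); under median centring both were above 0 (0.36 and 0.11), and with the covariate they were at -0.22 (adjusted p = 0.739) and -0.82 (adjusted p = 0.0194). Among the ER-associated degradation genes, Os9 rose by 0.54 at 600 ppm PB against the PB controls and did not pass against the phthalate controls (0.37) or with the covariate (0.30, adjusted p = 0.445). Edem2, a relative of Edem1, fell by 0.56 at 6000 ppm DEHP and by 0.70 at 12000 ppm BBP, and Vcp, the cytosolic segregase, rose by 0.41 at 6000 ppm DEHP. Of all genes, 4.15% fell and 5.22% rose at 6000 ppm DEHP, 1.42% fell at 12000 ppm BBP and 4.42% rose at 600 ppm PB. The size of the degradation list and its counts of calls are not given here, so these shares have no list share beside them. Values of these genes under median centring are not given either. Of 23 ER to Golgi transport genes, 2 fell with DEHP, 1 fell with BBP, 0 were called with DNOP and 1 (Sec24d, 1.04) rose with PB at the top dose, where 4.15% of all genes fell with DEHP, 1.42% fell with BBP and 4.42% rose with PB. Sec24d did not pass against the phthalate controls (0.54) or with the covariate (0.15). The sensors and factors of the unfolded protein response had 0 of 7 called at each top dose by limma, with medians of -0.17, -0.23, 0.0034 and 0.068 for DEHP, BBP, DNOP and PB. Of 19 genes of the PERK and ATF4 arm, 1 (Psat1, 0.78 at 6000 ppm DEHP) was called, and of 31 cytosolic and mitochondrial chaperones 2 rose with DEHP (Hspb1 by 1.15 and Cct3 by 0.54) and 1 with BBP (Hspd1 by 0.95), where 5.22% of all genes rose with DEHP and 1.48% with BBP.

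At 600 ppm PB against the PB controls, 0 of 7 hepatocyte markers were called by limma (median -0.23), and the mean log2 level of the list was 10.45 to 10.57 at 600 ppm, against 10.62 to 11.33 in the PB controls. Of 8 macrophage markers 1 was higher (mean log2 level 6.31 to 7.28 at 600 ppm PB, against 6.10 to 6.62 in the PB controls), of 7 stellate cell markers 2 were lower (6.51 to 6.96, against 6.90 to 7.13), and of 7 endothelial, 4 bile duct, 4 B and plasma cell, 4 T and NK cell, 4 neutrophil and 5 red cell markers none was called. Of all tested genes, 4.42% were called higher and 5.55% lower at 600 ppm PB against the PB controls. No marker of any list was called at 600 ppm PB against the phthalate controls, with medians of 0.63 for the macrophage, -0.050 for the stellate cell and -0.22 for the hepatocyte list. Plasma cells and pancreatic acinar cells are rich in ER chaperones. Among the B and plasma cell markers, Mzb1, an ER protein of these cells, was detected on 4 of 4 arrays at 600 ppm PB and on 3 of 4 PB controls, while Cd79b, Ms4a1, Igj and Pou2af1 were detected on none of either group. The mean log2 level of the list was 4.46 to 4.56 at 600 ppm, against 4.46 to 4.75 in the PB controls. Of 9 acinar markers, 2 were detected on any array at 600 ppm PB (Cela1 and Amy2a5, each on 4 of 4) and 3 in the PB controls (Cela1 on 4, Ctrb1 on 3 and Amy2a5 on 1 of 4), and the other 6, Prss2, Cpa1, Pnlip, Cel, Try4 and Reg1, on none of either group. The mean log2 level of the acinar list was 5.04 to 5.21, against 5.06 to 5.23, and 1 of 4 tested acinar genes was lower at 600 ppm PB. At 6000 ppm DEHP 1 marker each of the stellate cell, endothelial, red cell and acinar lists was lower, as was 1 of 7 hepatocyte markers, with a list median of -0.71 and a mean log2 level of 9.86 to 10.70, against 10.69 to 11.29 in the phthalate controls. Of all tested genes, 4.15% were called lower at 6000 ppm DEHP. The part of the cell type markers in the ER gene results was not tested.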

How the data were processed

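Liver RNA of 77 samples was measured on Illumina bead arrays. The authors deposited an intensity and a detection p-value per gene and array, per the file headers, without normalization, and the software behind them is not given in the sources used here. Background was modelled by normexp with each array's background mean and SD estimated from the detection p-values, with an offset of 16, followed by log2 and quantile normalization. Of 18138 genes, 11324 with a detection p under 0.05 on at least 3 arrays were tested. One limma model (limma 3.58.1 in R 4.3.3) held 18 group means, with the label number as a random block (62 numbers, correlation 0.0985). Adjusted p-values are Benjamini-Hochberg over all tested genes within each of 27 contrasts, with a threshold of 0.05. Gene symbols matched RefSeq symbols for 14307 genes and synonyms for 2976. The fit was tested on simulated data with known changes. The highest correlation between any 2 samples was 0.99359, and no sample was counted as a duplicate. The members, the gene lists and the markers were chosen with earlier results of these data known. Genes were named by rule: every member, up to 4 called genes of each list at a top dose, the exposure check genes and the 5 genes with the most similar group means; B, plasma and acinar cell markers are named with their detection, chosen after their values were seen. The precision is limited by the number of arrays. One gene of the degradation list and a marker gene are not reported here.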

Additional observations from a re-analysis of the deposited data

Results flagged for a closer look

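Over 153 sets of one gene in one group of 4 to 10 samples, 5 (3.27%) had a sample far from the others, when chance gives about 1 in 20. Hspa5 at 6000 ppm DEHP was 4.339 in replicate 2, against 5.441 to 5.604 in the other samples. Hsp90b1 at 5000 ppm DNOP was 11.17 in replicate 3, against 12.13 to 12.21. Pdia3 at 600 ppm PB was 11.7 in replicate 3, against 11.99 to 12.01, and still lay above the PB controls. Pdia6 at 6000 ppm BBP was 7.196 in replicate 1, against 8.314 to 8.44, and Edem1 at 600 ppm PB, not detected, was 4.511 in replicate 1, against 5.559 to 5.696. All are normalised log2 intensities.

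The effect of 600 ppm PB differed from that of a top phthalate dose by a test of the difference itself in 4 cases. Against 6000 ppm DEHP the difference of effects was 1.33 for Pdia4 and 2.16 for Pdia6 on the log2 scale. Against 12000 ppm BBP it was 1.23 for Pdia3 and 1.5 for Pdia4. With 1 sample left out in turn, the calls against DEHP held in 14 of 22 fits for Pdia4 and 18 of 22 for Pdia6. Those against BBP held in 22 of 22 for Pdia3 and 21 of 22 for Pdia4. With samples of 1 number averaged only Pdia3 against BBP stayed called, and with the percent of genes detected as a covariate only Pdia4 against BBP did.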

How the results depend on the processing

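Of the member and dose pairs against the PB controls, 13 were called, 10 of them without Edem1. The count was 21 with each array centred on its median (12 of the 13 among them), 3 with samples of 1 number averaged, 1 with only the groups compared in the fit, 0 with the percent of genes detected as a covariate, an alternative chosen after seeing the data, and 9 to 14 when samples were left out in turn (9 without PB control replicate 4). With that covariate Pdia6 reversed to -0.11 at 150 ppm and -0.087 at 600 ppm. Median centring also moved the all-gene median, to 0.163, 0.543, 0.465 and 0.536 from 75 to 600 ppm against the PB controls. Against the phthalate controls PB had 0 calls in limma, and 3 when both control groups were pooled: Edem1 at 150 ppm, Pdia3 at 300 ppm and Pdia4 at 600 ppm. The PB controls against the phthalate controls had 1 call, 5 with median centring, 2 without the controls numbered 32, 0 with array quality weights, only the groups compared or the covariate, and 0 to 2 with samples left out (0 without PB control replicate 1 or 4, 2 without PB control replicate 3 or phthalate control replicate 3). DEHP had 0 calls, 1 without the controls numbered 32, and 0 to 1 with samples left out (1 without phthalate control replicate 1, 9 or 10), while BBP and DNOP had 0 under every setting run, the leave-outs included. DEHP against BBP had 0 calls and 1 (Herpud1 at 6000 ppm) with array weights or only the groups compared. The PB effect against the phthalate effects had 4 calls, 1 with numbers averaged, only the groups compared or the covariate, and 2 to 5 with samples left out (2 without PB control replicate 4, 600 ppm PB replicate 2 or 4, or 6000 ppm DEHP replicate 2). For samples sharing a REP number in their labels, deviations had a mean correlation of -0.0485 across the 5 PB groups (-0.373 to 0.196). These groups have 2 REP numbers, whose deviations mirror each other, so this does not exclude pairing. In the phthalate groups the mean correlations were 0.0355 to 0.0636, with single pairs from -0.635 to 0.657. With the REP number as replicate block the PB count was 14 and the effect count 5. The cause of these changes was not tested. The share of all genes called in each alternative fit is not given here, so these counts do not separate the members from all genes. Genes near the background, Hspa5 and Edem1 foremost, are limited by signal, and the spread of Dnajb9 and Creld2 limits what 4 samples a group can show.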
